A study of Mus musculus with 4 samples.

Results

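The Frizzled receptors, their coreceptors and the transcription factor gene Tcf7l2 were followed in bone marrow stromal cells with and without Cre recombinase. The set was given as 10 gene symbols: the receptor genes Fzd1, Fzd2, Fzd4, Fzd5, Fzd6, Fzd7 and Fzd8, the coreceptor genes Lrp5 and Lrp6, and Tcf7l2. All 10 were found among the 44788 genes of the count table, and all 10 were among the 14483 genes abundant enough to be tested. Frizzled proteins cross the cell membrane and bind secreted Wnt proteins through a cysteine-rich domain outside the cell. With LRP5 or LRP6 beside them, bound receptors stop the breakdown of beta-catenin, which then enters the nucleus and works on genes held by TCF/LEF factors such as TCF7L2. In the skeleton this pathway is known for promoting bone formation, and loss of LRP5 function lowers bone mass.

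The cells came from mice of strain C57BL/6J in which both copies of Setd2, the gene of the methyltransferase that makes the histone mark H3K36me3, were floxed. All cells therefore had the same floxed genotype, the age of the mice was not stated, and the groups differed in the lentivirus. The control group received a virus with GFP (called WT in the labels) and the other a virus with Cre recombinase (called KO), each at passage 2 and followed by puromycin at 2 µg/ml for 4 days, with 2 RNA sequencing libraries per group. Whether the libraries within a group stem from different cultures or mice is not stated. P-values therefore reflect the spread between libraries alone, which may be technical. The fit estimates this spread largely from all genes together, so a p-value does not rest on a gene's own replicates alone. Since the control virus carried no recombinase, effects of Cre itself and of losing Setd2 cannot be told apart.

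Library totals were between 12371994 and 14315903 counts. Setd2 had 1400 and 1250 counts with GFP and 551 and 468 with Cre, a log2 fold change of -1.60 (standard error 0.08), which matches the labels (edgeR adjusted p = 3.65e-15, but 0.124 without GFP replicate 2). Which exons are floxed is not given in the sources used here, so the total may hold exons outside the deleted part. In GFP replicate 2, 7.45% of counts fell on the ribosomal RNA gene Rn18s-rs5, against 1.21% to 2.07% elsewhere. All 12 stromal markers examined passed the filter on low counts. Their summed level was 15625 to 15734 CPM (counts scaled to library size, with TMM) with GFP and 19602 to 20638 CPM with Cre. Most of this sum came from Col1a1 (mean 6896 CPM with GFP, 9901 with Cre) and Col1a2 (7116 and 8681). Of the 12 markers, 4 rose (Col1a1, Col1a2, Thy1 and Ly6a) and 1 fell (Cxcl12), while the others did not pass. All 10 macrophage markers passed the filter too, with a summed level of 2008 to 2063 CPM with GFP and 2357 to 2371 CPM with Cre. Most of it came from Lyz2 (mean 1398 CPM with GFP, 1691 with Cre). Among the macrophage markers Cd68, Lyz2, Tyrobp and Mrc1 rose and Emr1 fell. Summed endothelial markers stood at 12.3 CPM with GFP and 10.2 to 10.6 CPM with Cre, adipocyte markers at 126 to 143 and 160 to 161 CPM with Cidec and Retn at 0, and late osteoblast and osteocyte markers at 2.05 to 2.21 and 3.46 to 4.63 CPM with Sost and Mepe at 0. Most of the adipocyte sum came from Lpl (mean 121 CPM with GFP, 144 with Cre), which rose (edgeR adjusted p = 0.0261), and Adipoq and Plin1 had 0 to 2 counts. Most of the late osteoblast and osteocyte sum came from Ibsp (mean 1.52 CPM with GFP, 3.28 with Cre), which also rose (edgeR adjusted p = 0.00994). Bglap, Dmp1 and Phex had 1 to 6 counts. The 6 lymphocyte and erythroid markers summed to at most 0.152 CPM, with Cd3e, Hba-a1 and Hbb-bs at 0. The part of macrophages, or of the other cell types, in the results on receptor genes was not tested. In bulk RNA, fewer cells of a type and less RNA per cell cannot be told apart.

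The receptor genes form subfamilies, and the first question for a count table is whether reads of close relatives could be mixed. Fzd1, Fzd2 and Fzd7 are the closest relatives, with 81.3% identical bases in the aligned coding sequence of Fzd1 and Fzd2, 78.1% for Fzd1 and Fzd7 and 78.5% for Fzd2 and Fzd7. Fzd5 and Fzd8 shared 75.4%. The coreceptor genes Lrp5 and Lrp6 shared 67.7%. The longest identical coding stretches inside the first subfamily are printed because a read longer than them cannot match both coding sequences without a mismatch. They measure 47, 47 and 38 bases in GENCODE M21 transcripts, in the order printed, are written from 5′ to 3′ and carry no marked letters.
Fzd1 and Fzd2: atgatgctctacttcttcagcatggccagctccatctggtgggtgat
Fzd1 and Fzd7: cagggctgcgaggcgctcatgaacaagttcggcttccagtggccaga
Fzd2 and Fzd7: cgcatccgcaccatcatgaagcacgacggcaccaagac
No window of 50 bases of Fzd1, Fzd2, Fzd7, Fzd8 or Tcf7l2 occurred in a transcript of any other gene. Of such windows in Fzd5, 16.4% also lay in Gm38058, an annotated gene on the opposite strand, and 2.12% of those in Fzd6 lay in Gm26704. The sources used here do not say that strand was used in counting, so counts of Fzd5 and Fzd6 are uncertain to that extent. The sources used here give neither the read length nor how reads with several matches were handled.

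Of the 10 genes, 3 fell in the Cre libraries and none rose (at an unadjusted p under 0.05, 4 were lower and 0 higher). They were the receptor genes Fzd1 and Fzd8 and the transcription factor gene Tcf7l2. Among all 14483 genes tested, 3.22% were called lower and 3.74% higher (6.97% in all) by the same rule, edgeR's quasi-likelihood test with a Benjamini-Hochberg adjusted p under 0.05. In 7 of the 10 genes the Cre libraries lay wholly above or wholly below the GFP libraries, against 50.0% of all tested genes. The median log2 fold change over the 10 genes was -0.18, between -0.50 for Fzd1 and 0.14 for Fzd2, and that of all tested genes was -0.00. The median was -0.0733 without GFP replicate 2, -0.10 without Cre replicate 2 and -0.12 with a correction for GC content and length. Calls were fewer with a library left out, which leaves 1 library in a group and less power. How many were lost differed with the library left out. Such a fit cannot tell whether a lost call comes from the smaller group or from that library. Without GFP replicate 1 or without GFP replicate 2, 0 of the 10 genes were called by edgeR (4 and 3 had an unadjusted p under 0.05), as were only 12 and 0 genes of the whole table. Without Cre replicate 1 the call of Fzd1 remained, and without Cre replicate 2 those of Fzd1 and Fzd8. DESeq2 called 1 of the 10, Fzd1. With no filter on low counts edgeR called 0 of the 10 (5 at an unadjusted p under 0.05) and 30 genes in all.

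**Figure D1:**
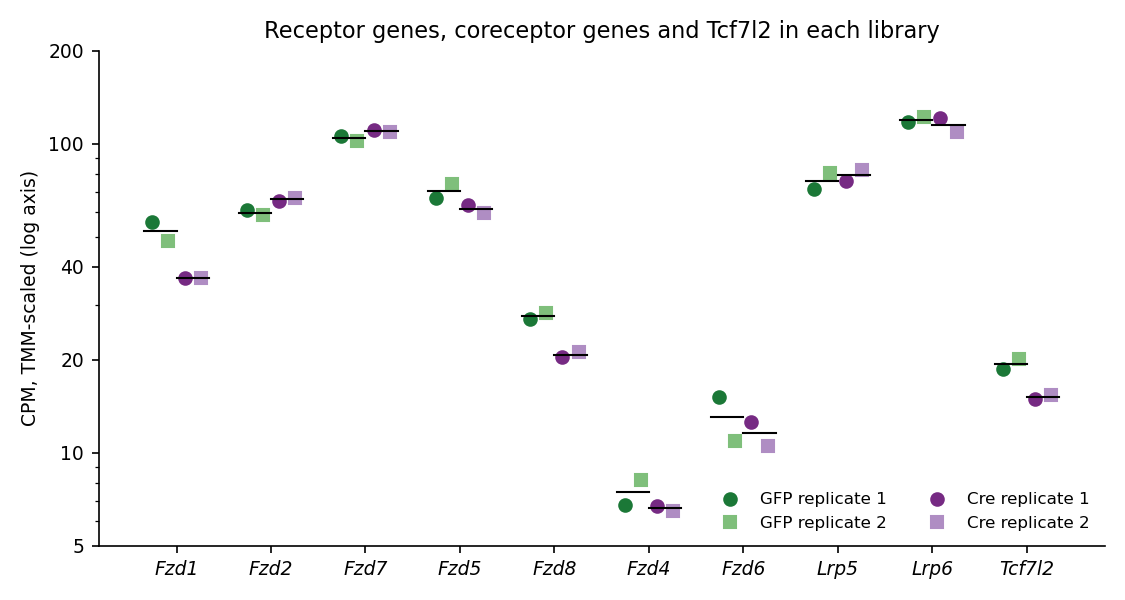
TMM-scaled CPM (log axis) of the 10 genes in each of the 4 libraries, one point per library, with a bar at the mean of each group. The Cre points of Fzd1, Fzd8 and Tcf7l2 lie below both GFP points, while those of Lrp5, Lrp6 and Fzd6 overlap with GFP.

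Within the subfamily of Fzd1, Fzd2 and Fzd7, Fzd1 fell while its close relatives did not pass the test. Fzd1, on chromosome 5 from 4753839 to 4758035 (GRCm38, minus strand), had 732 and 570 counts with GFP and 533 and 533 with Cre. Scaled, these were 55.7 and 48.5 CPM with GFP and 36.9 and 36.8 CPM with Cre. The Cre libraries were nearly equal, and both lay below the lower GFP library. The mean went from 52.1 ± 5.07 to 36.9 ± 0.0348 CPM (SD, n = 2 each). On the log2 scale this was a change of -0.50 ± 0.08 (standard error, edgeR adjusted p = 0.000137). Leaving out GFP replicate 1 gave -0.40 (adjusted p = 0.239), and leaving out GFP replicate 2 gave -0.59 (adjusted p = 0.187).

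Fzd2 lies on chromosome 11 from 102604396 to 102608058 and encodes a receptor used in both beta-catenin and polarity signalling. It had 60.8 and 58.7 CPM with GFP and 65.0 and 67.0 CPM with Cre. Both Cre libraries were higher, but the log2 fold change of 0.14 did not pass (edgeR adjusted p = 0.251), with an unadjusted 95% interval from -0.00 to 0.29, and it was 0.0836 with the GC and length correction. Fzd7, on chromosome 1 from 59482424 to 59486955, was the most abundant receptor gene of the set. Its values were 106 and 102 CPM with GFP and 111 and 109 CPM with Cre, all within a narrow range (log2 fold change 0.08, 95% interval -0.06 to 0.21, edgeR adjusted p = 0.550). The intervals of both relatives lay above the interval of Fzd1, which ran from -0.67 to -0.34.

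Ratios of genes within a library do not depend on how libraries are scaled, and they were used to set the relatives against each other. The log2 ratio of Fzd1 to Fzd7 counts was -0.93 and -1.07 in the GFP libraries and -1.58 and -1.56 in the Cre libraries. That of Fzd1 to Fzd2 was -0.13 and -0.27 with GFP and -0.82 and -0.86 with Cre. In both ratios the groups were separated by more than the spread within them. The differences were -0.57 and -0.64, while the ratio of Fzd2 to Fzd7 differed by 0.07. The exact two-sided permutation test gave p = 0.333 for each of these 3 ratios, the smallest value that 2 against 2 libraries allow. That test therefore cannot pass 0.05 at any size of difference, nor can an adjustment over the 30 such quantities computed lower its p.

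**Figure D2:**
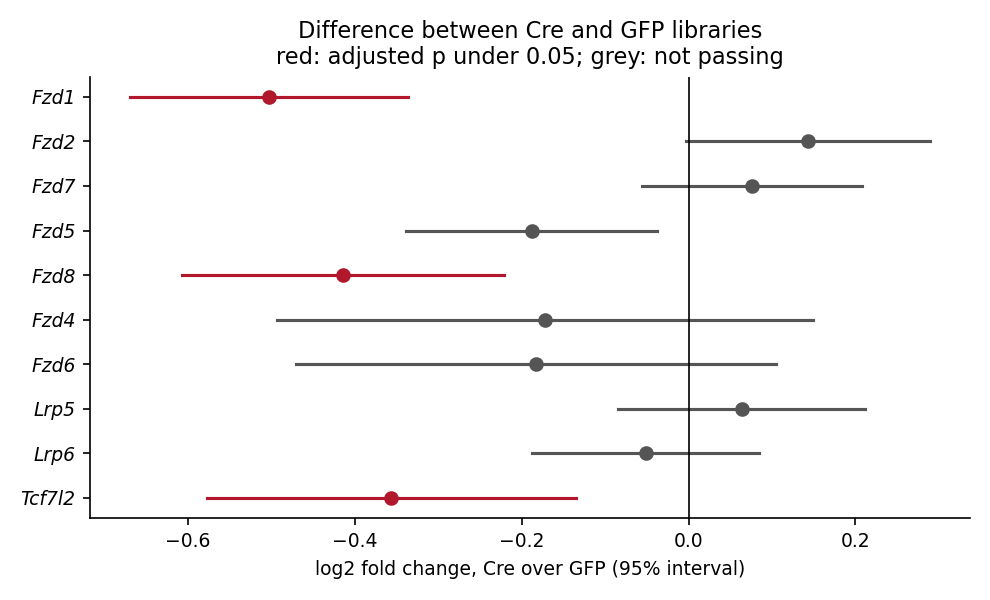
Log2 fold change of Cre over GFP (horizontal axis) for each gene, with its unadjusted 95% interval from the edgeR fit. Red marks the 3 genes with an adjusted p under 0.05, at -0.50 (Fzd1), -0.41 (Fzd8) and -0.36 (Tcf7l2).

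In the subfamily of Fzd5 and Fzd8, Fzd8 fell. It lies on chromosome 18 from 9212163 to 9218136 and is a receptor gene with a single exon. Its counts were 356 and 333 with GFP and 294 and 307 with Cre, or 27.1 and 28.4 CPM against 20.3 and 21.2 CPM. Here the replicates of each group lay close together and the groups did not overlap. The mean went from 27.7 ± 0.893 to 20.8 ± 0.616 CPM, on the log2 scale a change of -0.41 ± 0.09 (standard error, edgeR adjusted p = 0.00521). The call was lost in DESeq2 (adjusted p = 0.103). It was also lost without GFP replicate 1 (log2 fold change -0.45, adjusted p = 0.248), GFP replicate 2 (-0.38, adjusted p = 0.291) or Cre replicate 1 (-0.38, adjusted p = 0.0804).

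Fzd5, on chromosome 1 from 64730558 to 64737751, was lower in both Cre libraries without passing the adjusted threshold. It had 66.7 and 73.9 CPM with GFP and 63.4 and 59.8 CPM with Cre. The log2 fold change was -0.19 (95% interval -0.34 to -0.04, unadjusted p = 0.0158, edgeR adjusted p = 0.124), and it was -0.11 without GFP replicate 2. The log2 ratio of Fzd8 to Fzd5 was -1.29 and -1.38 with GFP and -1.63 and -1.49 with Cre. This difference of -0.23 was smaller than the one between Fzd1 and its relatives (exact permutation p = 0.333).

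The remaining receptor genes were low and none passed. Fzd4, whose protein also binds the ligand Norrin, lies on chromosome 7 from 89404355 to 89413134. It had 89 and 96 counts with GFP and 97 and 94 with Cre, or 6.77 and 8.18 CPM against 6.71 and 6.50 CPM. The lower GFP library lay close to both Cre libraries and the other was higher. At this depth the interval was wide, from -0.49 to 0.15 around a log2 fold change of -0.17, which was -0.31 without GFP replicate 1, -0.0347 without GFP replicate 2 and -0.0938 with the GC and length correction. Fzd6, on chromosome 15 from 39006034 to 39038188, is a receptor of the polarity branch. Its GFP libraries had 15.1 and 10.9 CPM and enclosed the higher Cre library of 12.6 CPM, while the other Cre library had 10.5 CPM. The log2 fold change of -0.18 (95% interval -0.47 to 0.10) turned to 0.08 without GFP replicate 1 and was -0.39 without GFP replicate 2. Of the Frizzled genes outside the set, Fzd3 had 16.7 and 19.8 CPM with GFP and 18.5 and 16.4 CPM with Cre, which overlap (log2 fold change -0.06, edgeR adjusted p = 0.822). Fzd9 with 8 to 13 counts and Fzd10 with 2 to 7 counts per library were too low to test.

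To compare levels between genes, CPM was divided by the length in kb of all annotated exons of a gene. On this scale Fzd7 led in every library, with 23.0 ± 0.619 CPM per kb with GFP and 24.3 ± 0.260 with Cre (SD, n = 2 each). Fzd2 followed with 16.3 ± 0.413 and 18.0 ± 0.370 CPM per kb. Fzd1 came next with GFP at 13.3 and 11.6 CPM per kb and stood at 8.79 and 8.78 with Cre, where its libraries lay within those of Fzd5 (9.17 and 8.65). Fzd5 had 10.2 ± 0.741 CPM per kb with GFP and 8.91 ± 0.362 with Cre. Below them came Fzd8 (4.64 with GFP, 3.48 with Cre), Fzd6 (2.70 and 2.40), Fzd3 (1.43 and 1.36) and Fzd4 (1.11 and 0.983). On this scale Fzd6 exceeded Fzd3 and Fzd3 exceeded Fzd4 in every library. Fzd9 and Fzd10 lay between 0.0468 and 0.392 CPM per kb. The order depends on the length used. Fzd5 has 6915 bases of exon but 1755 of coding sequence, and Fzd3 has 12804 and 1998. Per kb of coding sequence, Fzd5 lay above Fzd2 with GFP and above Fzd1 in every library. Fzd3 then lay above Fzd6 in every library.

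The summed Frizzled level over these 10 genes was 73.3 and 71.1 CPM per kb with GFP and 69.1 and 68.3 CPM per kb with Cre. For the difference of -3.53 CPM per kb the exact permutation p of 0.333 is the smallest possible. The difference was -1.97 with scaling by library size alone, where GFP replicate 2 lay below both Cre libraries, so the groups overlapped. Per kb of coding sequence, a shorter length on which every level is higher, it was -10.8. The make-up of the sum per kb of all exons differed too. Fzd1 supplied 18.1% and 16.3% of it with GFP and 12.7% and 12.9% with Cre. Fzd2 and Fzd7 together supplied 54.7% and 54.3% with GFP and 61.1% and 62.1% with Cre. The share of Fzd8 went from 6.43 ± 0.343% to 5.07 ± 0.192%. The groups did not overlap in any of these shares, and each permutation p was again 0.333. Shares of one sum are not independent of each other, so a lower Fzd1 by itself raises the others.

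**Figure D3:**
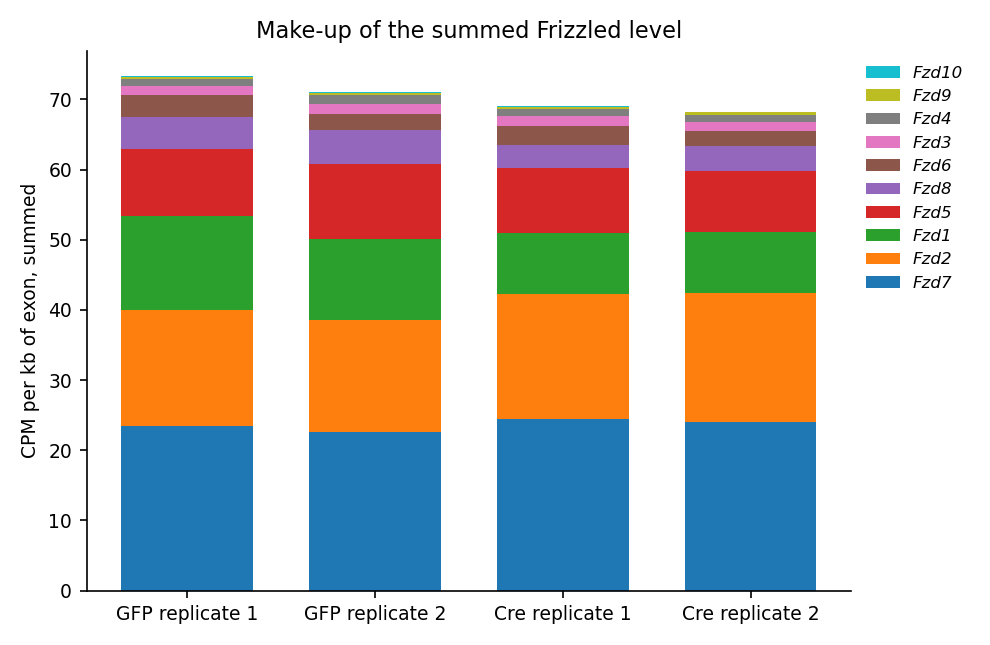
Summed Frizzled level in CPM per kb of exon (bars from 0) in each library, divided by gene. The totals run from 73.3 down to 68.3, and the Fzd1 segment is narrower in both Cre libraries while those of Fzd2 and Fzd7 are not.

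Neither coreceptor gene passed the test. LRP5 and LRP6 take up Wnt next to a Frizzled protein and carry the phosphorylated motifs that bind axin. Lrp5, on chromosome 19 from 3584828 to 3686564, had 71.5 and 80.1 CPM with GFP and 76.0 and 82.2 CPM with Cre. Lrp6, on chromosome 6 from 134446476 to 134566965, had 117 and 122 CPM with GFP and 121 and 109 CPM with Cre. In both genes the groups overlapped. The log2 fold change of Lrp5 was 0.06 (95% interval -0.08 to 0.21, edgeR adjusted p = 0.678) and that of Lrp6 was -0.05 (95% interval -0.19 to 0.08, edgeR adjusted p = 0.717). Changes of the size seen for Fzd1 lie outside both intervals. The sign of Lrp5 turned without GFP replicate 1 (-0.0180), and that of Lrp6 without Cre replicate 2 (0.0192) and with the GC and length correction (0.0590). Per kb of exon, Lrp6 had 8.74 ± 0.228 with GFP and 8.43 ± 0.598 with Cre, and Lrp5 7.78 ± 0.629 and 8.12 ± 0.454. With Cre their libraries overlapped on this scale, so their order there is not settled. Their coding lengths are nearly equal, at 4842 bases for Lrp5 and 4839 for Lrp6. Per kb of coding sequence Lrp6 was higher in every library, so the order depends on the length used.

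Tcf7l2, the only nuclear factor of the set, fell. The gene spans 192 kb on chromosome 19 from 55741820 to 55933654 and has 22 annotated transcripts, so a gene total cannot say which of them moved. Its counts were 245 and 236 with GFP and 215 and 222 with Cre, or 18.6 and 20.1 CPM against 14.9 and 15.3 CPM. Both Cre libraries lay below both GFP libraries. On the log2 scale the change was -0.36 ± 0.11 (standard error, 95% interval -0.58 to -0.13, edgeR adjusted p = 0.0414). This call was the weakest of the 3. It was lost in DESeq2 (adjusted p = 0.363), with scaling by library size alone (adjusted p = 0.150), with the replicate block (adjusted p = 0.0532), and with any 1 of the 4 libraries left out. The adjusted p was then 0.279 and 0.313 without GFP replicates 1 and 2, and 0.212 and 0.161 without Cre replicates 1 and 2. Of its relatives, Tcf7l1 had a log2 fold change of 0.04 (edgeR adjusted p = 0.862), Tcf7 -0.32 (adjusted p = 0.511) and Lef1 -0.36 (adjusted p = 0.543). Tcf7 and Lef1 were low, at 2.48 and 1.91 CPM on average.

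**Figure D4:**
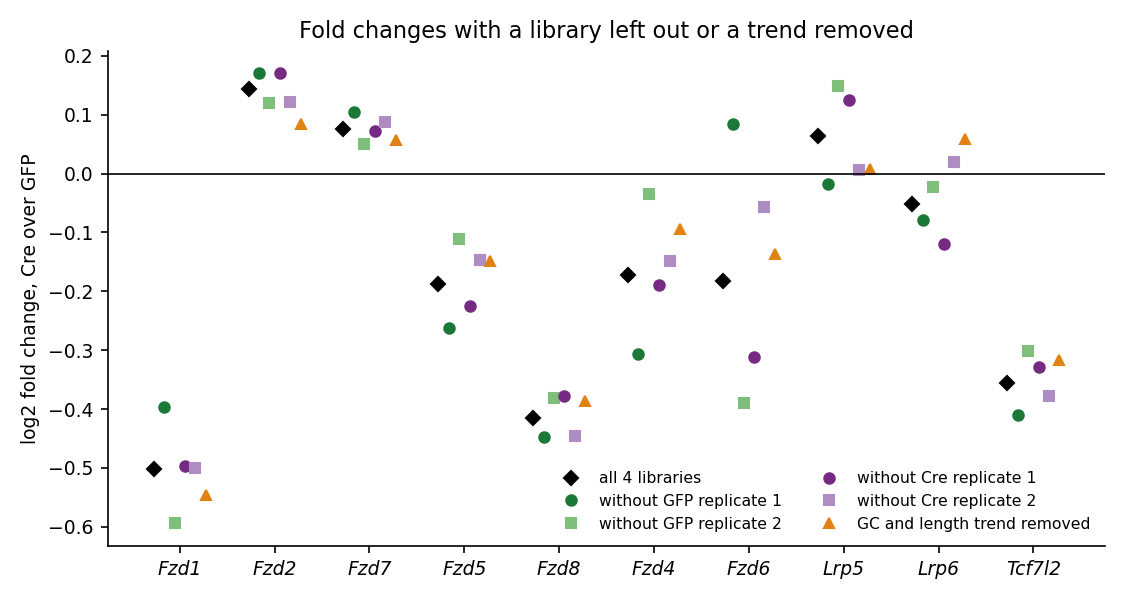
Log2 fold changes of the 10 genes in all 4 libraries (black), with each library left out (green and purple) and with the GC and length trend removed (orange). Fzd1, Fzd8 and Tcf7l2 stay at -0.30 or lower in every setting shown, and Fzd6, Lrp5 and Lrp6 change sign in at least 1.

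Promoter sequences came from the RefSeq table (GRCm38.p6), in which Fzd1, Fzd4, Fzd5, Fzd7 and Tcf7l2, 5 of the 10 genes, were matched with 6 windows. Fzd2, Fzd6, Fzd8, Lrp5 and Lrp6 were not matched. The 250 bases before the start site are printed for the 2 of these genes that fell, Fzd1 and Tcf7l2 (its first start site), and for Fzd7 as the relative of Fzd1 that did not pass. They lie at chr5:4758217-4758466 (minus strand), chr19:55741560-55741809 (plus strand) and chr1:59481897-59482146 (plus strand). The start sites are those of the RefSeq table and do not coincide with the gene ends given above, which come from GENCODE. Capitals mark the core of the TCF/LEF motif, CTTTG, and the GC box, GGGCGG, on either strand, with overlapping matches counted separately.
Fzd1: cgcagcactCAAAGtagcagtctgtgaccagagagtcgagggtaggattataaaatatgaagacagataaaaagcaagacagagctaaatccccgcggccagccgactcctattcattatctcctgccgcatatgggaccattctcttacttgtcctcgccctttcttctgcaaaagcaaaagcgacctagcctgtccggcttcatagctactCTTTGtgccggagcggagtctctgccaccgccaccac
Tcf7l2: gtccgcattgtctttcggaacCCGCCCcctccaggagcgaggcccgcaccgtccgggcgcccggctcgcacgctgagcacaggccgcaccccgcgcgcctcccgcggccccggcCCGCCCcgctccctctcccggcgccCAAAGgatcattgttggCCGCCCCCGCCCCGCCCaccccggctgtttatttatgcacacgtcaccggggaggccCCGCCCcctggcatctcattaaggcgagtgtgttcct
Fzd7: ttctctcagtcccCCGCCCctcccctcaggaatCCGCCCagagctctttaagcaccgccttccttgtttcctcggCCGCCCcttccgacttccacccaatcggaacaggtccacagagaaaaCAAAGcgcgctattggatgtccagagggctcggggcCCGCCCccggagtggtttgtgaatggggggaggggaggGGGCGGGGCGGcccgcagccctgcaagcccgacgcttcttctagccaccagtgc
The Fzd1 window held 2 TCF/LEF cores and 0 GC boxes. The Tcf7l2 window held 1 core and 6 GC boxes, and the Fzd7 window 1 core and 6 GC boxes. Among 32851 promoter windows of the same length, 48.6% held the core and 32.7% a GC box. The GC content was 51.2% in the Fzd1 window, 72.8% in that of Tcf7l2 and 65.2% in that of Fzd7, beside a median of 52.4% over all windows. A second Tcf7l2 window, at chr19:55895071-55895320 and not printed, differed from the first, with 40.8% GC, 1 core and 0 GC boxes. The Fzd4 and Fzd5 windows, at 72.8% and 76.4% GC, held 7 and 9 GC boxes. These are matches of letters, not sites of binding.

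The genes that fell were not alike in exon number, and whether gene structure plays a part was not tested. Fzd1, Fzd2, Fzd7 and Fzd8 each consist of 1 exon, and 2 of these 4 fell. Fzd4 and Fzd5 have 2 exons, Fzd6 has 7, Tcf7l2 14 in its longest coding transcript, and Lrp5 and Lrp6 have 23 each. Over 333 tested coding genes with 1 exon the median log2 fold change was 0.00, and 10 were called higher and 10 lower. Across the table, fold changes followed GC content and length. The median log2 fold change was 0.09 for transcripts above 56% GC and -0.08 for those under 44%, and it was -0.11 for transcripts over 8 kb. Fzd1, with 55.7% GC and 4.20 kb, belongs to a GC class with a median of 0.04, in which 2.73% of genes fell. By length, Fzd1 and Fzd8 (5.97 kb) belong to the class of 4 to 6 kb, with a median of -0.03, in which 4.41% of genes fell and 2.79% rose. The longest coding transcript of Tcf7l2 (3.7 kb) belongs to the class of 2 to 4 kb, with a median of 0.01, in which 2.47% fell and 4.23% rose. Fzd8 has 51.7% GC (class median -0.01) and Tcf7l2 47.3% (class median -0.05). With the GC and length trend of each library taken out, an alternative added after the trend was seen, the same 3 genes passed. Their log2 fold changes were then -0.55 (edgeR adjusted p = 1.6e-07), -0.39 (adjusted p = 0.00203) and -0.32 (adjusted p = 0.0432).

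The other genes of the pathway were examined by role, in 8 lists with 160 different genes. Of the 128 that could be tested, 4 rose (3.12%) and 7 fell (5.47%), beside the 3.74% and 3.22% of all genes given above. The median of the 128 was -0.06. Without GFP replicate 1 or 2 edgeR called 0 of them (20 and 19 at an unadjusted p under 0.05), and 5 and 3 were called without Cre replicates 1 and 2. DESeq2 called 5, and scaling by library size alone gave 4. The other 117 tested genes did not pass. Genes named below that did not pass were chosen for their known role after their values were seen.

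At the membrane, 1 of 15 other receptors and coreceptors fell and none rose, with a median of -0.11. It was the syndecan gene Sdc4, whose heparan sulfate chains hold growth factors at the cell surface, with 90.7 ± 1.78 CPM with GFP and 76.2 ± 3.25 CPM in the Cre group (log2 fold change -0.25, edgeR adjusted p = 0.0198). The call was lost in DESeq2 (adjusted p = 0.125) and with scaling by library size alone (adjusted p = 0.160). The kinase-like receptors Ror2 (0.03), Ptk7 (-0.07) and Ryk (-0.16), which take part in polarity signalling, did not pass. Of 13 genes of receptor turnover and folding, 1 fell and none rose, with a median of 0.03. This was Rspo3, whose product protects Frizzled proteins from the ligases ZNRF3 and RNF43 (4.51 ± 1.32 to 2.45 ± 0.144 CPM, log2 fold change -0.86, edgeR adjusted p = 0.0192). This value leaned on the GFP libraries: it was -1.15 without GFP replicate 1 (adjusted p = 0.219) and -0.54 without GFP replicate 2 (adjusted p = 0.349). It was not called in DESeq2 (adjusted p = 0.268) or with library size alone (adjusted p = 0.0527). Rspo2, a gene of the same family, was far more abundant, at 98.1 ± 4.60 CPM with GFP and 100 ± 5.63 CPM with Cre. It did not pass (log2 fold change 0.03, edgeR adjusted p = 0.833). Counts of genes that share exon bases with another annotated gene are uncertain. The share was 13.1% for Rspo3 (with Gm48159), 8.80% for Wnt11 (Gm8398), 4.27% for Tnks (Gm9939) and 0.316% for Plcb3 (Ppp1r14b) among the called pathway genes. Among the others named, it was 23.8% for Mesdc2, 23.4% for Ccnd1, 14.6% for Ctnnb1 (Ulk4), 13.7% for Lef1 and under these for Axin2, Wnt5a and Tcf7l1. Znrf3 itself stood at -0.24 (adjusted p = 0.268), and Mesdc2, the chaperone that LRP5 and LRP6 need, at 0.05.

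Among ligands, export factors and secreted modulators, 1 of 16 tested genes rose and 2 fell, with a median of -0.13. The ligand gene Wnt11, known for signalling without beta-catenin, rose from 7.27 ± 0.804 to 11.7 ± 1.21 CPM (log2 fold change 0.69, edgeR adjusted p = 0.00249; DESeq2 adjusted p = 0.0812). Sfrp1, a secreted protein that binds Wnt, fell from 121 ± 6.87 to 97.1 ± 2.59 CPM (log2 fold change -0.32, edgeR adjusted p = 0.00239). Dkk3, a member of the Dickkopf family of secreted proteins, fell from 844 ± 33.6 to 699 ± 4.23 CPM (-0.27, adjusted p = 0.00589), a call lost with library size alone (adjusted p = 0.104). The most abundant ligand gene, Wnt5a, had a log2 fold change of -0.12 (edgeR adjusted p = 0.358). Of the 35 genes of this list, 19 were too low to test, among them Wnt1 and Wnt3a and the antagonists Dkk1 and Sost.

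In the cytoplasm, 1 of 27 relay genes fell and none rose, with a median of -0.04. This was Tnks, which encodes a tankyrase that marks axin for breakdown (113 ± 5.13 to 95.5 ± 10.9 CPM, log2 fold change -0.24, edgeR adjusted p = 0.0414). It no longer passed with the GC and length correction (-0.13, adjusted p = 0.0877), in DESeq2 (adjusted p = 0.201), with library size alone (adjusted p = 0.204) or with the replicate block (adjusted p = 0.0633). Without Cre replicate 2 it was -0.12 (adjusted p = 0.673). The other tankyrase gene, Tnks2, was more abundant, at 177 ± 5.37 CPM with GFP and 164 ± 4.21 CPM with Cre, and did not pass (log2 fold change -0.12, edgeR adjusted p = 0.306). Ctnnb1, the beta-catenin gene, stood at -0.04 (adjusted p = 0.779), Axin1 at 0.02, Apc at -0.11 and Gsk3b at -0.10. In the nucleus, 1 of 22 partners of beta-catenin rose and none fell, with a median of -0.11. It was the Groucho-family gene Aes (297 ± 11.1 to 346 ± 9.70 CPM, log2 fold change 0.22, edgeR adjusted p = 0.0321), which stood at 0.09 (adjusted p = 0.283) with the GC and length correction. It was not called with library size alone (adjusted p = 0.0587) or with the replicate block (adjusted p = 0.0554).

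Of 16 textbook target genes of beta-catenin 1 rose and none fell, with a median of -0.13. The gene that rose was Tnfrsf11b, which encodes osteoprotegerin, the decoy receptor that holds back osteoclast formation (149 ± 1.02 to 179 ± 2.08 CPM, log2 fold change 0.26, edgeR adjusted p = 0.00784). The feedback gene Axin2 had a log2 fold change of -0.13 (adjusted p = 0.766) at 4.33 CPM, Ccnd1 -0.18 (adjusted p = 0.0728), Nkd2 0.05 and Myc 0.01. Bambi, which encodes a decoy receptor of the TGF-beta family, had a log2 fold change of 0.43 (adjusted p = 0.0567) at 9.28 CPM. Lgr5 was at 1.13 CPM, with a log2 fold change of -1.17 (adjusted p = 0.0622). In the polarity and calcium branch 1 of 25 genes rose and 2 fell, with a median of -0.03. Daam2, a formin gene whose product binds Dishevelled, fell from 29.1 ± 2.48 to 19.7 ± 0.361 CPM (log2 fold change -0.56, edgeR adjusted p = 0.000345), the smallest adjusted p among these pathway lists. Its relative Daam1 was more abundant, at 43.9 ± 0.323 CPM with GFP and 44.4 ± 1.31 CPM with Cre, and did not pass (log2 fold change 0.02, edgeR adjusted p = 0.942). Of the phospholipase C genes, Plcb4 fell (-0.29, adjusted p = 0.0221) and Plcb3 rose (0.22, adjusted p = 0.0256). Neither was called in DESeq2 (adjusted p = 0.179 and 0.0641) or with library size alone (adjusted p = 0.138 and 0.0555).

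**Figure D5:**
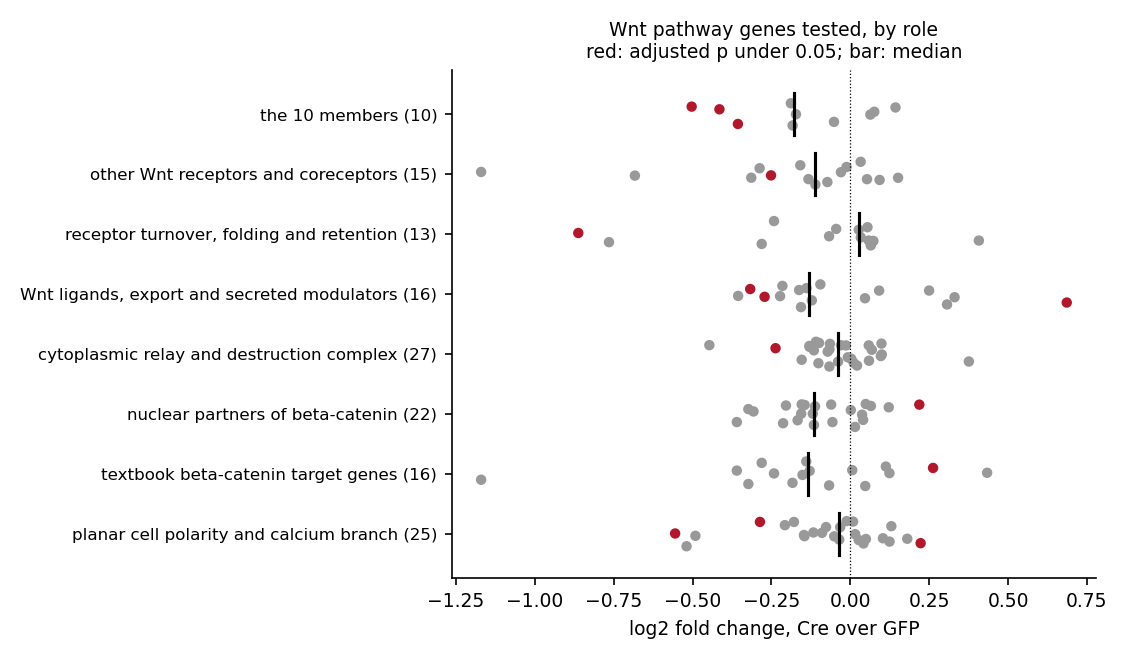
Log2 fold change of Cre over GFP for every tested gene of each role, one point per gene with a vertical offset that has no meaning, red where the adjusted p is under 0.05 and with a bar at the median. The 10 genes of the set lie at a median of -0.18, and the other roles between -0.13 and 0.03.

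The genes whose profile over the 4 libraries lay nearest to each gene that fell were searched among 10899 genes of at least 5 CPM. The measure was the Euclidean distance between log2 CPM values centred on their mean. Nearest to Fzd1 were Snx25 (distance 0.01), Saa3 (0.05) and Gxylt2 (0.05). Fzd8 lay nearest to Kif20a (0.02), Jph1 (0.03) and Prc1 (0.03), and Tcf7l2 to Slc1a5 (0.01), Nr4a1 (0.02) and Zfp74 (0.03). The search rests on 4 libraries, and the distances are in log2 units.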

How the data were processed

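RNA of 2 GFP and 2 Cre libraries was sequenced. Per the labels, libraries were made with the TruSeq kit from 1 µg of total RNA, and the submitters' processing notes name HISAT2 and GRCm38; of the counting program, annotation, strand setting and read length nothing was stated. The deposited values are whole-number counts for 44788 genes, with no normalization. Genes were kept with edgeR's filterByExpr (minimum count 10, minimum total 15; 14483 genes), scaled by TMM and tested with edgeR 4.0.16 (R 4.3.3) by quasi-likelihood, Cre against GFP, without the replicate number, with Benjamini-Hochberg adjustment over all tested genes and a threshold of 0.05. Totals of 12371994 to 14315903 counts put a floor of 3 counts at 0.207 to 0.255 CPM, which covers counting error only; the printed 95% intervals of fold changes come from the edgeR fit and also carry its dispersion. Log2 CPM and ratios used a prior count of 2. Counts of 14302 genes were simulated for this comparison, with 50 altered genes per size and 1 common dispersion for all genes (coefficient of variation 4.73%). The share of altered genes recovered was 32% for 1.25-fold, 60% for 1.5-fold, 92% for 2-fold and 96% for 3-fold changes. Of 147 calls, 7 were unaltered genes. In the data the GFP libraries differed from each other more than the Cre libraries did, which the simulation left out. Alternatives were DESeq2 1.42.0, limma-voom (limma 3.58.1), other scaling and filters, a replicate block, each library left out and, added after seeing the data, a GC and length correction (loess span 0.3). Same-numbered libraries did not deviate together (correlation -0.00886), so numbers were not taken as pairs. Named were Setd2, the 10 genes, the other Frizzled genes, up to 4 called genes per pathway list of at least 1 CPM, and the 3 nearest profiles of each called gene. The genes and the lists were chosen with earlier results of these data known. Gene positions come from GENCODE M21 and promoters from RefSeq GRCm38.p6, both on GRCm38.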

Additional observations from a re-analysis of the deposited data

How the results depend on the processing

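Of all genes, 1009 were called in the reported fit, 530 with scaling by library size alone (347 higher and 183 lower, against 542 and 467), 376 with DESeq2, 30 with no filter on low counts, 477 at a threshold of 0.01, and between 0 and 516 with 1 library left out (12 without GFP replicate 1, and 0 without GFP replicate 2 by edgeR, where 2197 had an unadjusted p under 0.05). Of the 10 genes, 3 were called, 1 with DESeq2, 0 with no filter (adjusted p of Fzd1 0.148, of Fzd8 0.169 and of Tcf7l2 0.255, with 5 at an unadjusted p under 0.05), and 0 to 2 with a library left out. Their median log2 fold change of -0.18 ran from -0.21 to -0.0733 with a library left out, at -0.0733 without GFP replicate 2 and -0.10 without Cre replicate 2. Of the pathway lists, 11 genes were called, 4 with library size alone, 5 with DESeq2, 0 with no filter (27 at an unadjusted p under 0.05) and 0 to 5 with a library left out. Signs turned without GFP replicate 1 for Fzd6 (0.0839) and Lrp5 (-0.0180), without GFP replicate 2 for Fzd3 (0.0689), without Cre replicate 2 for Lrp6 (0.0192) and Fzd3 (0.0276), and with the GC and length correction for Lrp6 (0.0590) and Fzd3 (0.104). With a library left out, log2 fold changes ran from -0.389 to 0.0839 for Fzd6, from -0.0180 to 0.148 for Lrp5, from -0.120 to 0.0192 for Lrp6 and from -0.184 to 0.0689 for Fzd3. The cause was not tested. A fit with the replicate block called 829 genes, 2 of the 10 (Tcf7l2 lost, adjusted p = 0.0532) and 9 of the pathway lists. The block's numbers are not shown to pair the libraries. The mean summed Frizzled level was lower with Cre in every alternative run for it, by 1.97 (library size alone) to 10.8 (coding length) CPM per kb. With library size alone its groups overlapped. The Fzd1 to Fzd7 ratio was lower with Cre by 0.50 to 0.64 on the log2 scale. Its groups did not overlap, so leaving out a library could not turn its sign, and scaling does not enter it. Genes with few counts, such as Fzd4 and Fzd6, have wide intervals at this depth.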
